A study of Homo sapiens with 24 samples.

Results

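The 8 genes BCL6, BACH2, MEF2B, MEF2C, IRF4, IRF8, PRDM1 and XBP1 encode transcription factors that keep a B cell in the germinal center or take it out toward the plasma cell. Their super-enhancers were read from a table of 2615 super-enhancers in WT OCI-Ly7 cells. The gene body of each of the 8 genes was extended by 50 kb on both sides and every overlapping super-enhancer was taken, for BCL6 also those within 300 kb, and the nearest one for a gene that had none. This gave 13 of the 2615 super-enhancers for 8 of 19970 protein-coding genes. Of these 13, 8 lay within 50 kb of 5 genes, 2 more lay within 300 kb of BCL6, and 3 were the nearest super-enhancers of IRF8, PRDM1 and XBP1. The choice used position alone and no signal.

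OCI-Ly7 is a cell line from a human B-cell lymphoma (diffuse large B-cell lymphoma) with germinal center features, and the clones called WT went through the CRISPR procedure without an edit. The study profiled H3K27ac, H3K4me1 and H3K4me3 by CUT&RUN, a method that cuts out and sequences the DNA next to a bound antibody. Its 24 samples fell into 12 groups of 2, by 3 marks and 4 genotypes: WT, the CREBBP point mutant R1446C (C), KMT2D knockout (K) and both together (CK). The table used here holds 1 value per super-enhancer, pooled over the 2 H3K27ac WT libraries, so the values have no replicate error and no difference was tested; C, K and CK were not analysed here. All cells came from a single line, in which every group shares whatever lesions that lymphoma carries.

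H3K27ac marks active enhancers and promoters. A super-enhancer is a run of such peaks lying close together that carries far more of the mark in sum than most enhancers do, and ROSE, the program that found them, joined peaks up to 12.5 kb apart. The table kept regions whose summed signal was above 10617, the cutoff in its header, so a gene listed without a super-enhancer may still have enhancers of lower signal. The signal is given in ROSE's own units, with the median super-enhancer at 19736 and the highest at 170185. The number of reads behind each value is not given, so depth could not be used to set an interval.

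In the germinal center B cells mutate their antibody genes and are selected by T cells. BCL6 is a repressor that this state depends on, and MEF2B is known to activate its transcription, with MEF2C a relative of MEF2B that B cells use. BACH2 is a repressor that holds back the plasma cell program, above all PRDM1. IRF8 acts in germinal center B cells, whereas IRF4, PRDM1 (also called Blimp-1) and XBP1 drive exit: IRF4 at high dose represses BCL6, PRDM1 shuts off B-cell genes, and XBP1 builds up the secretory machinery of plasma cells.

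Each super-enhancer is built of peaks. In 10 of the 13 regions, and in 1305 of all 2615, the summed peak length equaled the number of peaks times 401 bp, so there each peak was taken as a window of that size. In the other 3 regions, both of MEF2B and that of XBP1, the summed length was larger and no peak was located. A stitched region starts with its first peak and ends with its last, so these outer peaks could be placed. The middle 201 bases of 7 of them are shown. For each gene whose outer peaks could be placed, this is the one nearest to the canonical start that overlapped no exon. For BCL6 that of the dense region farther out is also shown. In MEF2C the outer peak nearer to the start overlapped an exon, so the peak at the far edge is shown, and the inner peaks lie nearer. Acetylation peaks outside super-enhancers were not analysed here and may lie nearer to these genes. Sequences are from the plus strand of hg38, 5′ to 3′, and none overlaps an annotated exon of a protein-coding gene. Capitals mark a match to a searched motif on either strand, and a sequence all in lower case held none of the 8 motifs searched.
BCL6, peak 13.6 kb upstream of the start, in the region of rank 1468, chr3:187759004-187759204: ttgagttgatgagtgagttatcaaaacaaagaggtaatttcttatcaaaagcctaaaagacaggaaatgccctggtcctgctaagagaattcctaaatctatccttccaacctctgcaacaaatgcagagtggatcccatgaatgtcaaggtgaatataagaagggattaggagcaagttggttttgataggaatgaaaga
BCL6, peak 144 kb upstream, in the region of rank 282, with an interferon-response element core, chr3:187889673-187889873: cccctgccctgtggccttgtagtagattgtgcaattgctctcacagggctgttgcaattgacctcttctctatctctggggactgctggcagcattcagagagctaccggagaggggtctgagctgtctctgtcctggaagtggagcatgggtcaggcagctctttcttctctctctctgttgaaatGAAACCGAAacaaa
BACH2, peak 35.1 kb into the gene, in the region of rank 66, intronic, chr6:90261621-90261821: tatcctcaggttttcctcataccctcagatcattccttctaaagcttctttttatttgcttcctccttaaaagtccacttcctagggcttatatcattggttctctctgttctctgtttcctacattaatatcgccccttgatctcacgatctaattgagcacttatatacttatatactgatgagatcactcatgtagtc
MEF2C, intronic peak 77.8 kb into the gene, in the region of rank 1075, with an ETS-IRF composite motif, chr5:88805324-88805524: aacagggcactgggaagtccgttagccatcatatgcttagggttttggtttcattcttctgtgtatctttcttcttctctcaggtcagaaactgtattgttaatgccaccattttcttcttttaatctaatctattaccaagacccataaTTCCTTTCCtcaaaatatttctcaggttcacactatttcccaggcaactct
IRF4, peak 4.05 kb upstream, in the region of rank 1825, chr6:387605-387805: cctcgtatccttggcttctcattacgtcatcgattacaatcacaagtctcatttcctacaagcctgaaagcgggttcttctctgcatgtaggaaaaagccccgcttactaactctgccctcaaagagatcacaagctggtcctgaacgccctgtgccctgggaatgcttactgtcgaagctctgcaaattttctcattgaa
IRF8, peak 76.1 kb downstream of the start, in the region of rank 1483, chr16:85975168-85975368: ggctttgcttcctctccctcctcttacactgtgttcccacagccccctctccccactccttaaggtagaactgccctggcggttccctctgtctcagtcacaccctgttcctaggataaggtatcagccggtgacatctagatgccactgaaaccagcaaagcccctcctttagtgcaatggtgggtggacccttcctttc
PRDM1, peak 147 kb upstream of the canonical start, in the region of rank 1869, chr6:105939106-105939306: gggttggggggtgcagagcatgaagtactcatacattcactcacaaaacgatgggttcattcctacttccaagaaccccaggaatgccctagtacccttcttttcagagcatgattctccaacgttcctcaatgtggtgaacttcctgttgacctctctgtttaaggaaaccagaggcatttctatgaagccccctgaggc

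BACH2 had the strongest super-enhancer of the 8 genes within 50 kb, and IRF8 and the exit factors PRDM1 and XBP1 had none there. BCL6 had 1 super-enhancer of below-median signal just upstream, and 2 of much higher signal lay farther out, within 300 kb. MEF2B and IRF4 had 2 super-enhancers each and MEF2C had 1. In all, 5 of the 8 genes had a super-enhancer within 50 kb, where 30.7% of all protein-coding genes had one. Within the gene body itself the count was 3 of 8 (BACH2, MEF2B and MEF2C) against 17.3% of all genes.

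**Figure D1:**
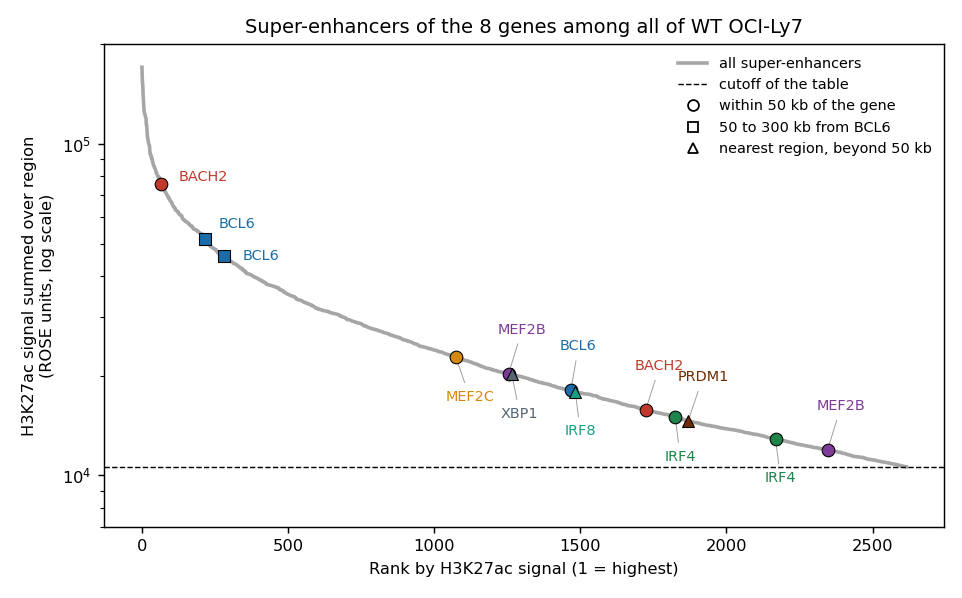
All 2615 super-enhancers of WT OCI-Ly7 cells by rank (x axis) and summed H3K27ac signal in ROSE units (y axis, log scale), with the 13 super-enhancers of the 8 genes as colored symbols, circles within 50 kb of the gene, squares 50 to 300 kb from BCL6 and triangles for a nearest region beyond 50 kb. BACH2 at rank 66 and the regions at ranks 215 and 282, taken within 300 kb of BCL6, stand on the steep left part of the curve. The other 10 lie between ranks 1075 and 2346.

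BCL6 (ENSG00000113916.18) lies on chromosome 3 from 187721377 to 187745725 on the minus strand. Its start faces a stretch in which 3 super-enhancers followed one another and none overlapped a protein-coding gene. The nearest ran from 187758904 to 187872138, starting 13.4 kb upstream of the canonical start, and had a signal of 18072 (rank 1468), which is 1.70 times the cutoff. It was long, at 113 kb with 25 peaks, and its signal was spread thin at 0.160 per bp, so that by signal per bp it ranked 2543. The next, from 187889573 to 187927055 and 144 kb away, was short and dense. It measured 37.5 kb with 6 peaks, had a signal of 45874 (rank 282) and carried 1.22 per bp (rank 84 by this measure). The farthest, from 187989788 to 188125222 and 244 kb away, had the highest sum of the 3, 51682 (rank 215), over 135 kb with 33 peaks at 0.382 per bp, and overlapped 3 long non-coding RNA genes.

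Against the region next to BCL6, the middle region had 2.54 times the signal and 7.67 times the signal per bp, and the farthest had 2.86 times the signal and 2.39 times the signal per bp. The dense middle region was thus ahead per bp and the long distal region in sum. Gaps of 17.4 kb and 62.7 kb parted the 3 regions, which together held a signal of 115628 in 286 kb and 64 peaks. No protein-coding gene lay within 50 kb of the middle region, and 2, BCL6 among them, lay within 50 kb of the nearest. Within 50 kb of the farthest lay 1, which was not BCL6, so that region was nearer to another gene. By distance alone, then, a window of 50 kb linked BCL6 to the weakest of the 3. Within 50 kb, 18.6% of all protein-coding genes had a super-enhancer at least as strong as the BCL6 region of rank 1468, and within 300 kb 8.62% had one at least as strong as that of rank 215.

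BACH2 (ENSG00000112182.16), at 370 kb from 89926528 to 90296843 on the minus strand of chromosome 6, carried its super-enhancers inside the gene. The larger, from 90061341 to 90261921, lay wholly within BACH2 and was 99.3% intron. Its signal of 75398 (rank 66) was 7.10 times the cutoff and above that of 97.5% of super-enhancers. It spanned 201 kb, or 54.2% of the gene body, with 63 peaks. The signal per bp of 0.376 was close to the median of all super-enhancers, 0.343, so its rank in sum went with its length (rank 51 of all by length). It began 34.9 kb downstream of the canonical start and covered 4 alternative start sites of BACH2.

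The other BACH2 region, from 89917566 to 90009636, covered the 3′ part of the gene and ran on over GJA10, a connexin gene. Its signal was 15762 (rank 1724), over 92.1 kb with 30 peaks at 0.171 per bp. The intronic region thus had 4.78 times the signal of the 3′ region and 2.20 times its signal per bp. Only 0.961% of protein-coding genes had as strong a super-enhancer within 50 kb as BACH2. Among the 598 protein-coding genes at least as long as BACH2 the share with any super-enhancer within 50 kb was 20.7%, lower than the 30.7% of all genes. That share counts regions of any signal, and the part of gene length in the BACH2 signal was not tested. Beyond 50 kb, regions of rank 617 (73.7 kb from the gene, over MDN1 and CASP8AP2) and rank 872 (184 kb) followed on the same side.

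MEF2C (ENSG00000081189.17), on the minus strand of chromosome 5 from 88717117 to 88904257, also had its super-enhancer in introns. It ran from 88805224 to 88839407, was 96.9% intron, and began 43.8 kb downstream of the canonical start. The signal was 22694 (rank 1075), or 2.14 times the cutoff, over 34.2 kb with 9 peaks. At 0.664 per bp it was dense, ranking 381 by this measure. It covered 12 annotated alternative start sites of MEF2C and no protein-coding gene but MEF2C lay within 50 kb of it. It stood alone: no other super-enhancer lay within 1 Mb of the gene.

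MEF2B (ENSG00000213999.17), on the minus strand of chromosome 19 from 19145567 to 19192131, lies in the opposite kind of surrounding, packed with genes. The stronger of its 2 regions within 50 kb, from 19069161 to 19147194 (signal 20289, rank 1255, 78.0 kb, 28 peaks, 0.260 per bp), reached only into the 3′ end of the gene. Of that region 2.09% lay in the body of MEF2B. It also overlapped SLC25A42, a mitochondrial carrier gene, and TMEM161A, and 8 protein-coding genes lay within 50 kb of it. The weaker region, from 19176337 to 19199215, was the one at the 5′ end. It had a signal of 11945 (rank 2346), which is 1.13 times the cutoff, over 22.9 kb with 10 peaks at 0.522 per bp. Of its length, 69.0% lay in MEF2B, it covered 1 alternative MEF2B start, and it also overlapped BORCS8 and RFXANK, a regulator of MHC class II genes. The readthrough gene BORCS8-MEF2B overlaps MEF2B, and the regions cannot be assigned to either. Farther out, 96.1 kb from the gene over SUGP2 and ARMC6, lay a region of higher signal (23884, rank 1001).

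**Figure D2:**
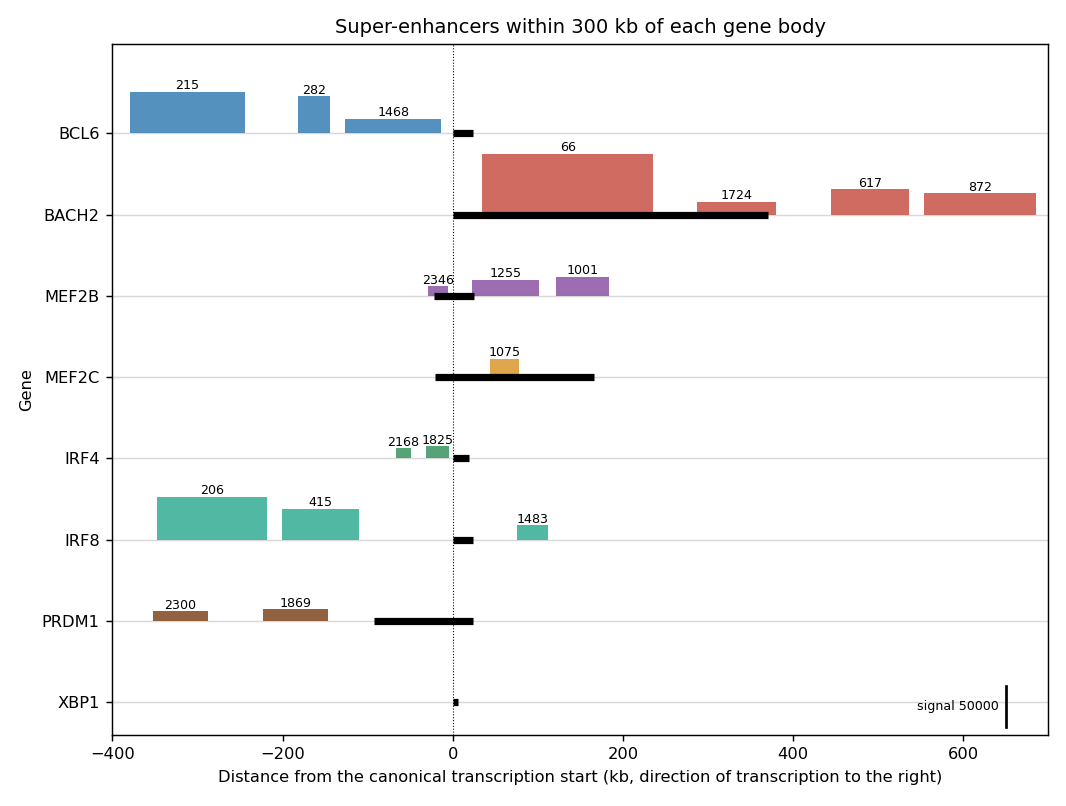
Super-enhancers within 300 kb of each gene body, drawn by distance from the canonical transcription start in kb with transcription to the right; each box spans a region, its height is the H3K27ac signal (scale bar 50000 ROSE units), the number above it is its rank, and the black bar is the gene body. Boxes of BCL6, IRF4 and PRDM1 lie upstream of the start, those of BACH2 and MEF2C lie downstream, and XBP1 has none.

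IRF4 (ENSG00000137265.16) lies near the end of the short arm of chromosome 6, from 391739 to 411443 on the plus strand. Both of its super-enhancers lay upstream and were short. The nearer one, from 360925 to 387905, ended 3.83 kb before the gene, overlapped no gene, and had a signal of 14974 (rank 1825) over 26.98 kb with 7 peaks at 0.555 per bp. The farther one, from 324902 to 342508, lay 49.2 kb from IRF4, just inside the limit of 50 kb, and within DUSP22, which encodes a phosphatase. It had a signal of 12891 (rank 2168) over 17.6 kb with 4 peaks at 0.732 per bp. In sum these were weak regions, 1.41 and 1.21 times the cutoff, and per bp they were dense, ranking 557 and 298.

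IRF8 and PRDM1 had their nearest super-enhancers just outside 50 kb. For IRF8 (ENSG00000140968.12, chromosome 16, 85899116 to 85922606, plus strand) it lay 52.5 kb beyond the 3′ end, from 85975068 to 86011031, in a stretch free of protein-coding genes with 3 long non-coding RNA genes. The signal was 17870 (rank 1483) over 36.0 kb with 8 peaks at 0.497 per bp, and no protein-coding gene lay within 50 kb of it. Stronger regions lay upstream, of rank 415 (38465, 110 kb from IRF8, over C16orf74 and EMC8) and rank 206 (53405, 218 kb away, over GSE1 and GINS2). Within 300 kb, 8.31% of protein-coding genes had a region as strong as the strongest of IRF8.

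For PRDM1 (ENSG00000057657.17, chromosome 6, 105993463 to 106109939, plus strand) the nearest region ended 54.1 kb before the gene body and 147 kb before the canonical start. It ran from 105863134 to 105939406, overlapped 1 long non-coding RNA gene and no protein-coding one, and had a signal of 14598 (rank 1869) over 76.3 kb with 15 peaks. At 0.191 per bp it was among the sparse regions (rank 2367 by this measure). XBP1 (ENSG00000100219.17, chromosome 22, 28794555 to 28800597, minus strand) had no super-enhancer within 300 kb. The nearest, from 29255495 to 29284671, lay 455 kb away over EMID1, RHBDD3 and EWSR1, with a signal of 20161 (rank 1266) over 29.2 kb with 8 peaks, and 6 protein-coding genes lay nearer to it than 50 kb. Of all protein-coding genes, 67.5% had a super-enhancer at least as near as that of XBP1.

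**Figure D3:**
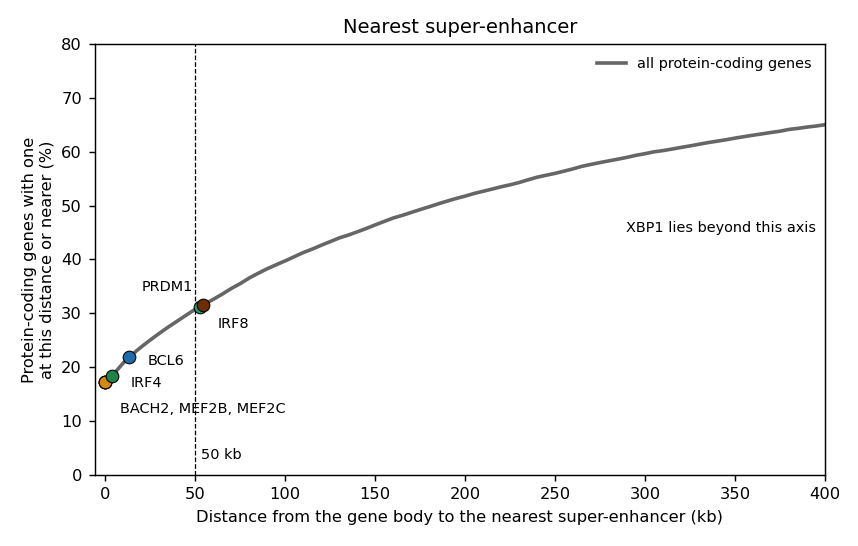
Share of all protein-coding genes (y axis, %) with a super-enhancer at or nearer than a given distance from the gene body (x axis, kb), with 7 of the 8 genes as points on the curve; XBP1, at 455 kb, is off the axis. BACH2, MEF2B and MEF2C sit at 0 kb, IRF4 at 3.83 kb, BCL6 at 13.2 kb, and IRF8 and PRDM1 just past the dashed line at 50 kb.

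The distance limit decided which genes were counted. IRF8 (52.5 kb) and PRDM1 (54.1 kb) were just outside the 50 kb and the farther IRF4 region (49.2 kb) just inside. Both genes entered at 100 kb, where 7 of the 8 genes and 39.7% of all protein-coding genes had one. At 300 kb the count was still 7 of 8, against 59.6% of all genes. XBP1 was the gene left out at both limits. Taking only the 1307 super-enhancers with the highest signal, 3 of 8 genes (BACH2, MEF2B and MEF2C) had one within 50 kb, against 16.8% of all genes.

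By the strongest super-enhancer within 50 kb, the genes ran from BACH2 (75398) through MEF2C (22694), MEF2B (20289) and BCL6 (18072) to IRF4 (14974). BACH2 stood 3.32 times above MEF2C, with 1008 other super-enhancers between them in rank. The steps further down were 1.12, 1.12 and 1.21 times, and with no replicate value none of these steps could be set against a spread. For comparison, the 6140 protein-coding genes with a super-enhancer within 50 kb had a median strongest signal of 21038, so BACH2 and MEF2C were above it and the other 3 below. The order was another one per bp, where these same regions ranked 381 for MEF2C, 557 for IRF4, 1129 for BACH2, 1867 for MEF2B and 2543 for BCL6.

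**Figure D4:**
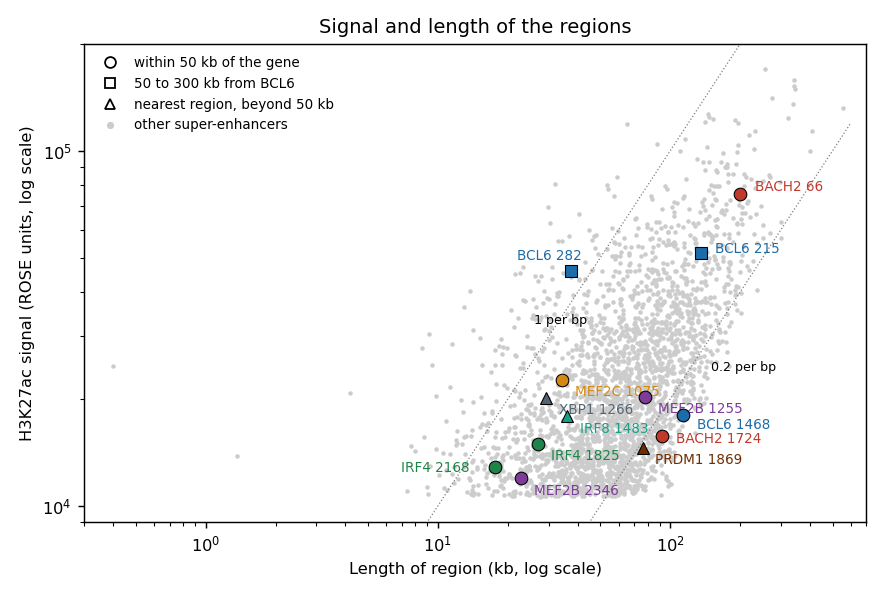
Length (x axis, kb) against summed H3K27ac signal (y axis, ROSE units), both on log scales, of all 2615 super-enhancers (gray) and the 13 of the 8 genes, labeled by gene and rank; dotted lines mark 0.2 and 1 unit of signal per bp. The BCL6 region of rank 282 alone among the 13 lies above the line of 1 per bp, and the BCL6 region of rank 1468, the 3′ region of BACH2 and the PRDM1 region lie below that of 0.2.

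Of the 13 regions, 6 were above the median super-enhancer in signal, 6 in length and 9 in signal per bp. Of the 8 within 50 kb, 3 were above the median signal. The 13 mix regions within 50 kb, regions within 300 kb of BCL6 alone, and nearest regions. The tally therefore depends on these limits. None of the 13 held the canonical start of its gene, and 4 held some annotated start of it. Measured from the canonical start, 8 lay upstream and 5 downstream, and 6 overlapped no protein-coding gene. Regions taken beyond 50 kb could by choice hold no start of their gene. No shares over all super-enhancers are given beside these counts, which describe the 13 regions alone. ROSE was run leaving out peaks near annotated start sites, and the part of this in these counts was not tested.

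The wider surroundings also differed between the genes. Super-enhancers covered 35.6% of the 300 kb on each side of the BACH2 start, 34.6% for IRF8, 34.4% for BCL6 and 27.3% for MEF2B. The median protein-coding gene had 6.12% covered. PRDM1 had 14.8%, IRF4 7.43%, MEF2C 5.70%, and XBP1 0%. BACH2, IRF8 and BCL6 were thereby above 91.8%, 91.2% and 91.0% of genes, whereas MEF2C was above 49.4%.

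The other genes of the program were described from lists of known genes. The lists were written with earlier results of these data known, so their shares are not independent of these data. Of 22 genes of the germinal center program, 18 had a super-enhancer within 50 kb (81.8%, against 30.7% of all genes), and their median strongest signal was 25174, against 21038 for all genes with one. Among the 1307 regions of highest signal the count was 10 of 22, against 16.8% of all genes. The highest were FOXP1 (64674, rank 109), EBF1 (57186, rank 162) and PAX5 (51672, rank 216), all transcription factors of B cells. Genes without one were SPIB, P2RY8, GCSAM and LMO2. Of 16 genes of the plasma cell program, 13 had one (81.2%), and 7 had one over the gene body itself, against 17.3% of all genes. The median was 23572, with the highest at TNFRSF17, the receptor BCMA (58512, rank 148). HSPA5, ERN1, EDEM1 and SEC61B, genes of protein folding and secretion that lie with XBP1 in the unfolded protein response or downstream of it, each had a super-enhancer, at 18450, 29031, 20301 and 23336 (these 4 were chosen for naming after their values were seen). SDC1 (CD138), ZBTB20 and KLF2 had none.

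Among 19 genes that BCL6 is known to repress, 7 had a super-enhancer within 50 kb (36.8%), close to the 30.7% of all genes, and their median strongest signal was 16582. The count was 3 of 19 over the gene body, against 17.3% of all genes. Among the 1307 regions of highest signal it was 2 of 19, against 16.8% of all genes. GPR183, a chemotactic receptor switched off in germinal center B cells, was the highest at 42067 (rank 343). IRF4, CD44, CD69 and CHEK1 were among the others with one, while PRDM1, BCL2, CCR7, S1PR1 and CD80 were among the 12 without. Of 19 paralogues of the 8 genes, 8 had one (42.1%, against 30.7% of all genes), with a median of 30912. PRDM2 (68379, rank 93) and PRDM10 (63161, rank 116) were the highest. Among the IRF paralogues IRF1 (46194) and IRF2 (30749) had one, and IRF3, IRF5, IRF7 and IRF9 were among those that did not. MEF2D (20357) had one and MEF2A did not. BACH1 and BCL6B had none. POU2AF1, CREB3L2 and PAX5 stand in more than one of the lists, IRF4 and PRDM1 are themselves among the genes BCL6 represses, and no list was tested. As a check of cell type, 5 of 8 B-cell markers had a super-enhancer within 50 kb (MS4A1, CD79A, CD79B, PAX5 and CD74), against 1 of 8 T-cell markers (TCF7), 1 of 6 myeloid markers (CSF1R) and 1 of 8 markers of other tissues (HNF4A).

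**Figure D5:**
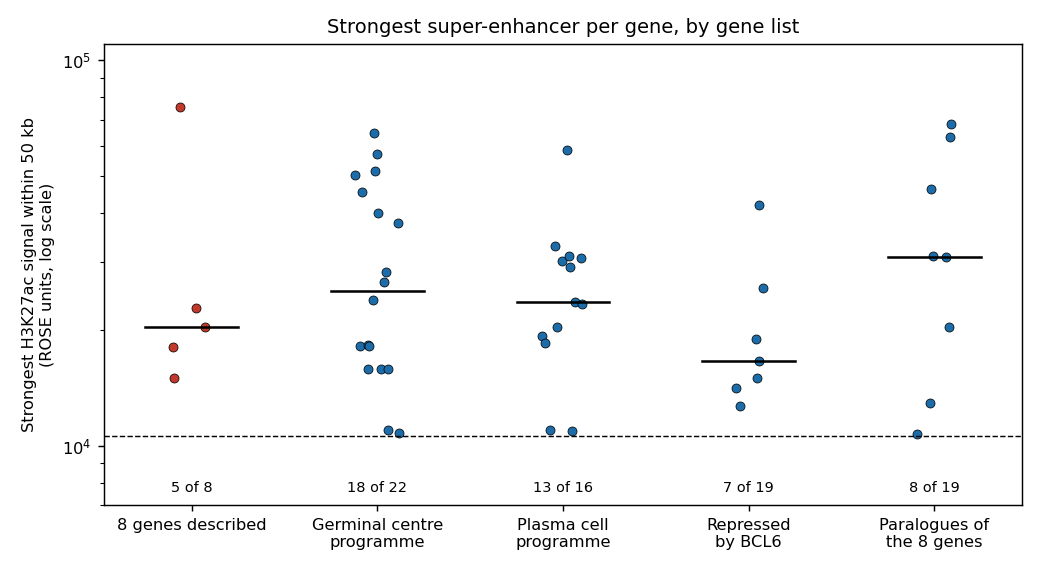
H3K27ac signal of the strongest super-enhancer within 50 kb (y axis, ROSE units, log scale) for each gene with one, by gene list; bars are medians, the dashed line is the cutoff, and the numbers give how many genes of each list had one. BACH2 lies above every gene of the 4 lists, and the other 4 genes lie within their range.

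The letters of known binding motifs were counted over each whole region on both strands, including the sequence between its peaks. The summed peak length was only 6.42% (BCL6, rank 282) to 21.0% (MEF2B, rank 2346) of a region. These counts are therefore not counts within the peaks. The 8 motifs were the ETS-IRF composite GGAANNGAA, the interferon-response element core GAAANNGAA, the BCL6 motif TTCCTNGAA, the PRDM1 motif AGNGAAAG, the AP-1 and BACH motif TGANTCA, the XBP1 motif TGACGTGG, and the MEF2 and kappa-B motifs. The MEF2 motif was YTAWWWWTAR and the kappa-B motif GGGRNWYYCC. In these, N is any base, Y is C or T, R is A or G and W is A or T. The ETS-IRF, interferon-response and PRDM1 motifs share the run GAA and may match the same bases. Of 104 values, 8 motifs in 13 regions, 10 were at or above the level that 95% of all super-enhancers fall below, where 5.2 would be 5% of them, and 4 were within the lowest 5%. Of the 10, the XBP1 motif in the MEF2B region of rank 2346 rests on 1 match. The 4 low values came from short regions, 3 from that MEF2B region and 1 from the IRF4 region in DUSP22, with 1 to 3 matches each.

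The MEF2C region held 22 MEF2 motifs, or 6.44 per 10 kb, above 99.4% of super-enhancers and against a median of 2.12. This motif is made mostly of A and T. The region was also among the poorest in G and C of all super-enhancers at 34.7%, with 0.153% of super-enhancers below it. The part of base composition in the count was not tested. The BCL6 region of rank 282 held 21 PRDM1 motifs (5.60 per 10 kb, above 98.7%, median 2.73), and the BCL6 region of rank 1468 held 53 ETS-IRF composites (4.68 per 10 kb, above 97.4%, median 2.50). The IRF8 region held 25 interferon-response element cores (6.95 per 10 kb, above 98.7%, median 3.54). The PRDM1 region held 39 AP-1 and BACH motifs (5.11 per 10 kb, above 97.4%, median 2.94). The IRF4 region in DUSP22 was above 99.3% of super-enhancers in the BCL6 motif, but this rests on 3 matches in 17.6 kb. In G and C, 23.1% and 19.3% of super-enhancers lay below the BCL6 regions of ranks 282 and 1468. For the PRDM1 region this was 16.2%, for the IRF8 region 64.9% and for the IRF4 region in DUSP22 57.3%. The part of base composition in these counts was not tested either.

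In the middles of the outer peaks the motifs were few. Of the 20 such windows in the 10 regions, 3 held an interferon-response element core and 1 an ETS-IRF composite, and none held the other 6. Over 2609 windows from all super-enhancers whose peaks could be placed the shares were 6.52% and 4.87%. At bases 188 to 196 of the BCL6 window 144 kb upstream, printed above, stood the core GAAACCGAA.

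None of these regions reached a promoter of its gene at the canonical start, so promoters were searched apart, from 250 bases before to 50 after each start in RefSeq. The 8 genes had 18 such promoters among 34961. The BCL6 motif occurred at 1 of the 18 promoters, of BCL6, where 1.55% of all promoters held it. The ETS-IRF composite was found at 2 of the 18, of MEF2C and PRDM1 (7.78% of all). The AP-1 and BACH motif was found at 3 of the 18, of BCL6, MEF2C and PRDM1 (7.68%). The MEF2 motif (2.99%) and the kappa-B motif (5.91%) were each found at 1 of the 18, of MEF2C. Matches to the interferon-response element core (8.11%), the PRDM1 motif (8.01%) and the XBP1 motif (0.732%) were found at none of the 18.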

How the data were processed

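The deposited table held, for each super-enhancer, the position, the number and summed length of its peaks, its rank and 1 pooled H3K27ac WT signal in ROSE's units. According to the methods, the authors ran nf-core cutandrun (hg38) against an IgG control and scaled libraries by their promoter reads. They used SEACR for peaks, MACS2 for summits and ROSE for super-enhancers. ROSE left out peaks within its default distance of start sites, and the start sites of non-coding RNA were first dropped from that list. The header gave the stitching distance of 12500 bp and the cutoff. Depth per library is not given in the table.

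Genes and canonical transcripts came from GENCODE version 44 (hg38), promoters from RefSeq (GRCh38.p14). Distances ran from the gene body unless a start is named. Signal per bp was signal over length. A link rests on distance alone and shows no regulation. The overlap of genes with regions was tested on simulated intervals. The genes, lists and motifs were chosen with earlier results of these data known. Named genes were the 8 genes, the protein-coding genes their regions overlap, and from each list those with the highest signal or without a region; a few others are named for their function. Alternatives were other extensions, start sites, the higher-signal regions, signal per bp, summed signal and wider promoters. Python 3.11.15, numpy 2.4.6, pandas 2.3.3 and matplotlib 3.10.9 were used.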

Additional observations from a re-analysis of the deposited data

How the results depend on the processing

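Of 50 values recomputed under other settings, 33 stayed within 1.5 times and 17 moved further. With no extension of the gene body, 3 genes had a super-enhancer and 5 regions were linked, and 17.3% of all protein-coding genes had one. With an extension of 300 kb, 18 regions were linked and 59.6% of all genes had one. With only the 1307 regions of highest signal, 3 genes and 16.8% of all genes had one. Measured from the start site, or from the canonical transcript, which was chosen after seeing the data, the count of genes stayed at 5. The search of outer peaks was also chosen after seeing the data. Ranked per bp, the strongest regions moved to 1129 for BACH2, 381 for MEF2C, 2543 for BCL6 and 557 for IRF4. With 500 bases on each side of the start, the BCL6 motif was still found at BCL6. The MEF2 motif moved from MEF2C to PRDM1 and the kappa-B motif from MEF2C to BACH2 and IRF8. The AP-1 and BACH motif was no longer found at BCL6, and an interferon-response element core appeared at MEF2C. The RefSeq promoters cover several starts per gene, the wider windows only the canonical one. No paired analysis was possible because the table holds 1 pooled value per region. Leaving out a library was not possible for the same reason. Regions below the cutoff were not analysed here.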
